A study of Mus musculus with 4 samples.

Results

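The genes described here were 9 regulators and markers of fat cell formation, Cebpb, Cebpd, Klf4, Pparg, Cebpa, Fabp4, Lpl, Cd36 and Adipoq, out of 30872 gene symbols on a mouse whole-genome BeadChip. They were picked by symbol, with earlier results of these data known, and were read by 15 of the 45281 probes. Mouse embryonic fibroblasts (MEFs) of an FVB;129 background, grown in medium with 10% serum, were profiled on 4 arrays of the same chip, 1 array per group. The study asked how the retinoblastoma protein Rb and its phosphorylation by cyclin-dependent kinases control transcription in early G1 phase.

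Parental MEFs carried floxed, intact Rb alleles and received medium without TAT-Cre. Rb-deleted MEFs received TAT-Cre, a cell-permeable recombinase that removes the floxed allele, in 2 treatments of 1 h given 3 h apart, and no virus. WT Rb-HA MEFs received the same TAT-Cre treatment and a retrovirus for wild-type Rb at the time of deletion. ΔCdk Rb-HA MEFs, labelled dCDK, received TAT-Cre and a retrovirus for an Rb whose Cdk phosphorylation sites had been mutated. All groups had been arrested by contact, released for 4 hr and given doxorubicin, a DNA-damaging drug, at 100 ng/ml for 3 hr, a step that the sample labels do not list. Parental MEFs were the only group without TAT-Cre, and a virus was given in the re-expression groups alone, so that loss of Rb cannot be told apart from TAT-Cre exposure, nor re-expression from infection. Since each group is a single array, differences were not checked by replicates and were given no test. Values printed in a row without names follow the order parental, Rb-deleted, WT Rb-HA, ΔCdk Rb-HA, or the last 3 of it where they are differences to parental MEFs. Errors are bead standard errors (bead SE), the technical spread over the beads of a probe.

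Fat cell formation runs through a short chain of transcription factors. Cebpb and Cebpd encode C/EBPβ and C/EBPδ, which are induced first and switch on Pparg and Cebpa, whose products PPARγ and C/EBPα then maintain each other's expression and activate the genes of the mature adipocyte. Klf4 encodes a zinc finger factor that acts at the start of the chain by activating Cebpb. Fabp4, a fatty acid carrier, Lpl, the lipoprotein lipase, Cd36, a fatty acid transporter, and Adipoq, the hormone adiponectin, are products of the differentiating or mature fat cell. Rb binds C/EBP factors and is known for a role in adipogenic conversion of cultured fibroblasts.

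What the array can say about Klf4, Cebpd and Lpl depends on where their probes lie, so stretches of them are shown 5′ to 3′, each named by its start in the transcript as the array table gives it. Klf4, on chromosome 4, had 3 probes. Capitals mark the 17 bases shared by the first and second, which therefore do not give independent readings. Of the third probe, which shares no run of more than 5 bases with the others and starts 904 bases downstream of the first, the first 30 bases are given.
Klf4 probe at 1644: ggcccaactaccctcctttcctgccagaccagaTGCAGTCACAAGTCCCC
Klf4 probe at 1674: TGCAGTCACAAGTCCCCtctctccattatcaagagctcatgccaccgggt
Klf4 probe at 2548: gtgtcggaggaagaggaagcgattcaggta

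The 2 Cebpd probes, on chromosome 16, faced opposite strands. A run of 40 bases in the probe listed at 2135 was the reverse complement of a run in the probe listed at 2096, so they do not read the same strand of RNA. In capitals are 30 bases of each that pair with each other.
Cebpd probe at 2135: GTCTTCATTTTGCAGCTACTTGGGCTTAGG
Cebpd probe at 2096: CCTAAGCCCAAGTAGCTGCAAAATGAAGAC

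Such pairs were uncommon, with a complementary run of at least 20 bases found in 75 of the 8965 genes that had 2 or more probes. The brighter Cebpd probe gave intensities of 262.6 to 321.4, and the opposite probe 43.9 to 51.6, where it was not detected on any array. The Cebpd values below come from the probe at 2135. It was taken for its signal, and since the strand of the gene was not checked here, it could read RNA of the opposite strand. For Lpl, on chromosome 8, the probe at 3889 carried all of the signal and starts with the 30 bases shown.
Lpl probe at 3889: gtgctaactttgtgtccgtctccatccatg

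A probe counted as detected where its detection p-value, which falls as a probe rises above the negative controls of its array, was below 0.01. By this measure 5 of the 9 genes, Cebpb, Cebpd, Klf4, Pparg and Lpl, were detected, through 7 of the 15 probes, and each of these 7 probes was detected on all 4 arrays. These 5 are among the 12616 genes analysed, those with a probe detected on at least 1 array. The other genes, Cebpa, Fabp4, Cd36 and Adipoq, were at or near background throughout. Levels below are log2 intensities after normalization, each for the brightest detected probe of a gene, and are compared between arrays and never between genes. A gene counted as past the threshold where 2 arrays differed by more than 1.6-fold, 0.68 on the log2 scale, the filter used in the study.

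**Figure D1:**
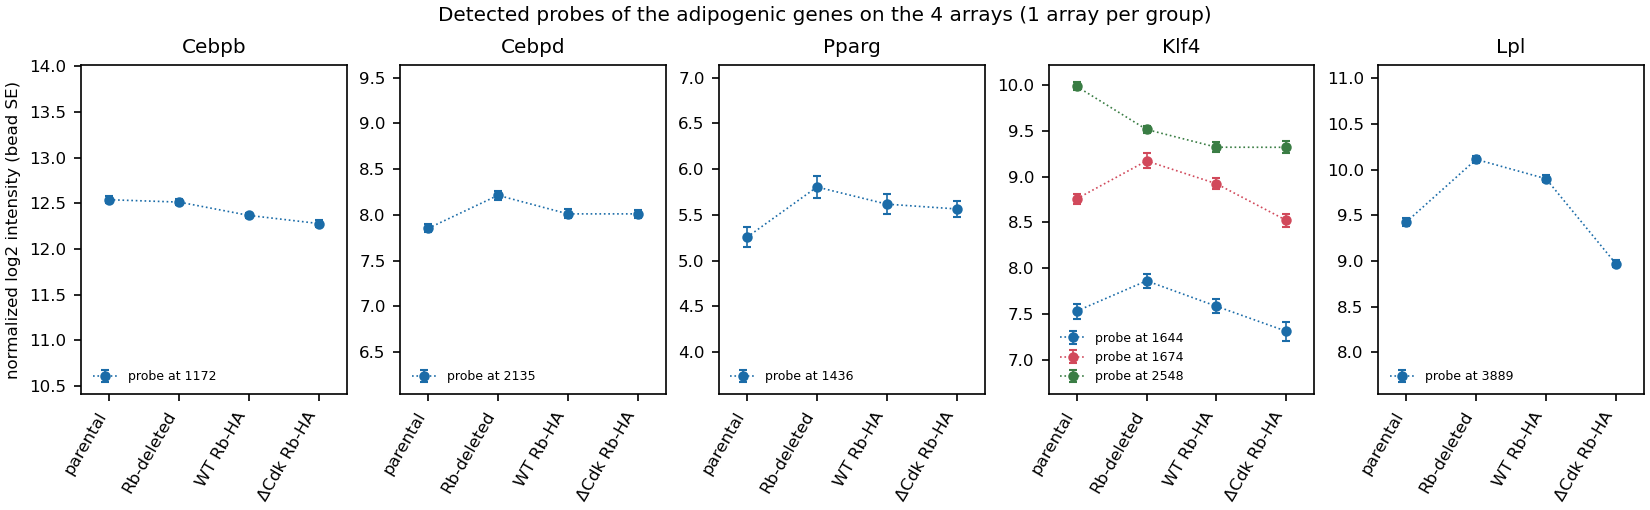
Normalized log2 intensity of the 7 detected probes on the 4 arrays, with error bars for the bead SE and dotted lines that only join the points of a probe. Lpl had the widest span, from 8.97 in ΔCdk Rb-HA MEFs to 10.11 in Rb-deleted MEFs, and the Klf4 probe at 2548 was highest in parental MEFs whereas the probes at 1644 and 1674 were highest in Rb-deleted MEFs.

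Among the first-acting factors, Cebpb and Cebpd differed little between the 4 arrays. The Cebpb probe gave intensities of 6109.5 in parental, 5717 in Rb-deleted, 5333 in WT Rb-HA and 5063 in ΔCdk Rb-HA MEFs. On the log2 scale Rb-deleted MEFs were 0.03 below parental MEFs (bead SE 0.05), within that error. WT Rb-HA MEFs were lower than Rb-deleted MEFs, with a difference of -0.15 (bead SE 0.05), and ΔCdk Rb-HA MEFs were lower again, by -0.09 from WT Rb-HA MEFs (bead SE 0.04). The whole span of Cebpb was 0.26 log2 units, and 29.5% of all genes analysed had a smaller span.

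Cebpd gave intensities of 262.6 in parental, 321.4 in Rb-deleted, 279.8 in WT Rb-HA and 276.4 in ΔCdk Rb-HA MEFs. It was highest in Rb-deleted MEFs, where it exceeded parental MEFs by 0.36 log2 units (bead SE 0.06). The 2 virus-treated groups could not be told apart from each other, with a difference of 0.00 (bead SE 0.06), and lay 0.16 above parental MEFs. Its span over the arrays was near the middle of all genes, since 50.7% had a smaller one.

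Klf4 gave different answers depending on the probe. The brightest probe, at 2548, had intensities of 1087 in parental, 754.0 in Rb-deleted, 660.8 in WT Rb-HA and 642.5 in ΔCdk Rb-HA MEFs. It was thus highest in parental MEFs, and the log2 difference to parental MEFs was -0.47 (bead SE 0.06) in Rb-deleted, -0.66 (bead SE 0.07) in WT Rb-HA and -0.67 (bead SE 0.08) in ΔCdk Rb-HA MEFs, the last 2 just short of 1.6-fold.

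The overlapping Klf4 probes ordered the arrays differently. The probe at 1674 gave 471.1 in parental, 603.2 in Rb-deleted, 504.4 in WT Rb-HA and 380.2 in ΔCdk Rb-HA MEFs. The probe at 1644 gave 213.5, 256.1, 214.9 and 178.7 in the same order. Both were highest in Rb-deleted and lowest in ΔCdk Rb-HA MEFs. Rb-deleted exceeded parental MEFs by 0.41 (bead SE 0.10) and 0.33 (bead SE 0.11) log2 units at 1674 and 1644, where the probe at 2548 gave a difference of the opposite sign.

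ΔCdk Rb-HA MEFs were below Rb-deleted MEFs in every Klf4 probe, by log2 differences of -0.65 (bead SE 0.11) at 1674, -0.55 (bead SE 0.13) at 1644 and -0.19 (bead SE 0.08) at 2548. From WT Rb-HA to ΔCdk Rb-HA the values were -0.40 (bead SE 0.09), -0.27 (bead SE 0.13) and -0.00 (bead SE 0.08) for the same probes. The direction of Klf4 in Rb-deleted against parental MEFs was therefore not settled, whereas with either form of Rb re-expressed, against Rb-deleted MEFs, the 3 probes had the same sign. In Rb-deleted against parental MEFs the probes lay 0.89 log2 units apart, and 99.2% of the 3024 genes with at least 2 probes detected on all arrays had a smaller gap. Such opposite readings, with a probe above 0.3 and another below -0.3, occurred in 22 of those genes. Among the 896 genes with at least 3 such probes, as Klf4 has, 98.4% had a smaller gap. In the other comparisons this last share ran from 9.71% to 95.5%.

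Pparg was detected close to background, through the probe at 1436 on chromosome 6.
Pparg probe at 1436: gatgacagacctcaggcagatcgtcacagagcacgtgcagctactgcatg
This whole probe is shown because its other 2 probes, at 22 and 287, were not detected, with intensities between 37.3 and 48.7. The detected probe gave 62.4 in parental, 78.7 in Rb-deleted, 74.3 in WT Rb-HA and 70.9 in ΔCdk Rb-HA MEFs, where the dimmest detected probes of the arrays lay between 53.8 and 58.4. Pparg was lowest in parental MEFs, and Rb-deleted MEFs exceeded it by 0.55 log2 units (bead SE 0.17), short of the threshold. The differences between the 3 TAT-Cre groups, the largest being -0.24 (bead SE 0.15) in ΔCdk Rb-HA against Rb-deleted MEFs, were under 2 bead SE.

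Cebpa, on chromosome 7, did not reach detection. Its probe gave 43.0 in parental, 49.5 in Rb-deleted, 58.3 in WT Rb-HA and 51.7 in ΔCdk Rb-HA MEFs. The detection p-values were 0.240, 0.0449, 0.0107 and 0.0321, so that the probe was nearer to detection in the 3 TAT-Cre groups than in parental MEFs. It just missed the threshold in WT Rb-HA MEFs. No fold difference is given, since the probe was below detection everywhere.

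The mature fat cell products other than Lpl were not detected in any group. Adipoq gave 43.7, 44.2, 54.6 and 52.5, with detection p-values of 0.0235 and 0.0246 in the last 2. Cd36 gave 35.1 to 39.7 and Fabp4 32.9 to 36.0, close to or below the background, which was lowest in Rb-deleted MEFs at 38.7. The Fabp4 probe had 11 G or C among its 50 bases, fewer than any other probe of the 9 genes. Absence of signal here means that these probes were not above background, not that the RNA was absent.

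**Figure D2:**
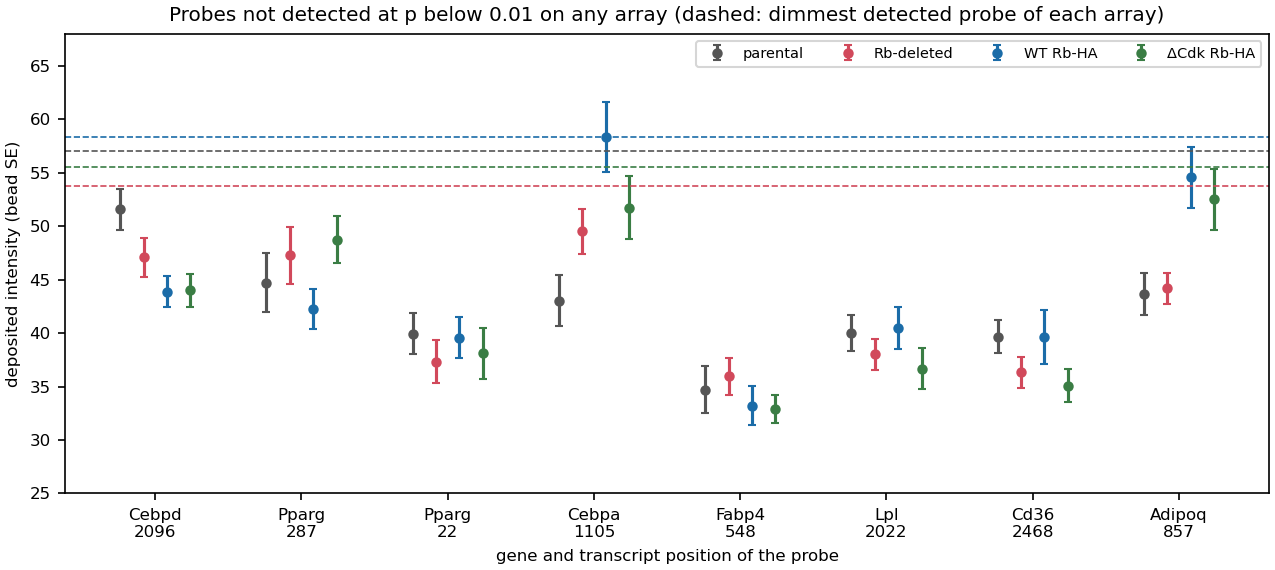
Deposited intensity with bead SE of the 8 probes of the 9 genes that were not detected on any array, coloured by group, with a dashed line for the dimmest detected probe of each array. Cebpa in WT Rb-HA MEFs, at 58.3, came closest to its array's line at 58.4, while Fabp4 and Cd36 lay between 32.9 and 39.7. The vertical axis does not start at 0.

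Lpl was the gene with the clearest differences. Its product clears lipid from lipoproteins, and both fat cells and macrophages make it. The intensity was 738.1 in parental, 1125 in Rb-deleted, 969.5 in WT Rb-HA and 511.6 in ΔCdk Rb-HA MEFs, so that Rb-deleted MEFs were highest and ΔCdk Rb-HA MEFs lowest. The second Lpl probe, at 2022, stayed between 36.7 and 40.5 and was not detected.

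ΔCdk Rb-HA MEFs had 2.20-fold less Lpl signal than Rb-deleted MEFs, a log2 difference of -1.14 (bead SE 0.05), and 1.90-fold less than WT Rb-HA MEFs, a log2 difference of -0.93 (bead SE 0.05). WT Rb-HA MEFs were nearer to Rb-deleted MEFs, with a log2 difference of -0.21 (bead SE 0.05). Against parental MEFs the sign was opposite for the 2 re-expressed forms, 0.47 (bead SE 0.06) for WT Rb-HA and -0.46 (bead SE 0.06) for ΔCdk Rb-HA. Rb-deleted MEFs exceeded parental MEFs by 0.68 (bead SE 0.06), 1.61-fold and just past the threshold, a call that was lost in 4 of 9 alternative settings at that threshold. Of these 9, the other detection rules and the averaging of probes could not change the Lpl value. Of all genes analysed 97.6% had a smaller span over the 4 arrays than Lpl. No second probe checks these values, since the one at 2022 was not above background.

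The genes whose profile over the 4 arrays lay nearest to that of Lpl, by root mean square difference of centred log2 values, were Bach2 at 0.0087, Ank1 at 0.051 and Slc30a3 at 0.081. All were detected on the 4 arrays but were dimmer, between 76.0 and 168.6 in intensity. With 4 points per profile, 5 of the 12616 genes came within 0.1.

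Counted over the 6 comparisons of arrays, Lpl was the only one of the 5 detected genes past 1.6-fold. In Rb-deleted against parental MEFs it was the 1 gene of 5 that was higher and none was lower, where 2.14% of all genes analysed were higher and 2.98% lower. None of the 5 passed in WT Rb-HA against parental MEFs (0.888% of all genes higher, 2.46% lower) or in ΔCdk Rb-HA against parental MEFs (2.58% higher, 3.3% lower). None passed in WT Rb-HA against Rb-deleted MEFs, where 0.539% of all genes were higher and 0.484% lower. In ΔCdk Rb-HA against Rb-deleted MEFs Lpl was lower, the other 4 genes did not pass, and 2.31% of all genes were higher and 1.95% lower. In ΔCdk Rb-HA against WT Rb-HA MEFs Lpl was again the 1 of 5 that was lower, with 0.84% of all genes higher and 1.01% lower. These comparisons share arrays and are not independent.

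All 5 detected genes were below 0 in WT Rb-HA against Rb-deleted MEFs, with a median of -0.19, and all 5 in ΔCdk Rb-HA against Rb-deleted MEFs, with a median of -0.23. The medians of all genes analysed were -0.02 and -0.03. Both comparisons use the same Rb-deleted array, so they are not independent. That array was not the highest for every gene. Against parental MEFs it was lower for Cebpb (-0.03) and for the brightest Klf4 probe (-0.47). In WT Rb-HA against Rb-deleted MEFs each of the 5, Lpl included, lay within the middle 90% of all genes, which ran from -0.37 to 0.35. In ΔCdk Rb-HA against Rb-deleted MEFs that range was -0.51 to 0.50, and Lpl alone of the 5 lay outside it.

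**Figure D3:**
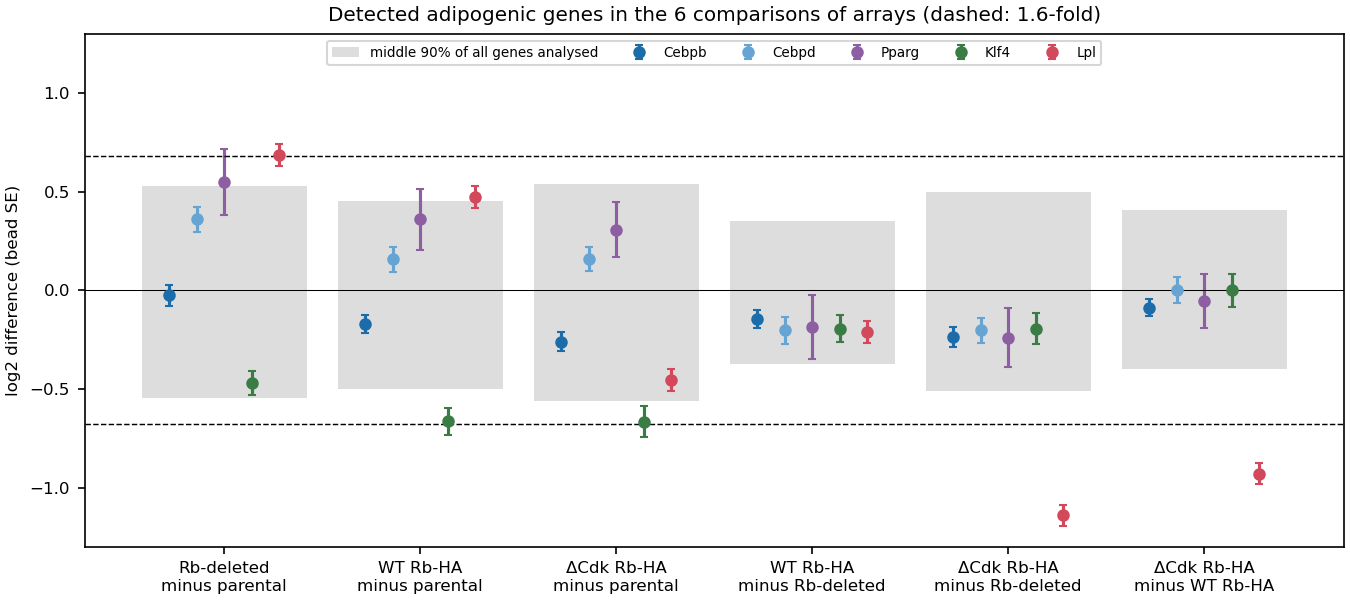
Log2 differences of the 5 detected genes, by the brightest probe of each, in the 6 comparisons of arrays, with bead SE as error bars, a grey band for the middle 90% of the 12616 genes analysed and dashed lines at 1.6-fold. Lpl, at -1.14 and -0.93, lies far below the band where ΔCdk Rb-HA MEFs are set against either of the other TAT-Cre groups, and all 5 genes lie below 0 in both comparisons with Rb-deleted MEFs.

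The deletion itself was visible in Rb1, on chromosome 14. Its brighter probe gave 542.7 in parental, 160.5 in Rb-deleted, 180.9 in WT Rb-HA and 170.1 in ΔCdk Rb-HA MEFs, 3.67-fold lower in Rb-deleted than in parental MEFs. The signal did not return in the 2 virus-treated groups, so this probe gives no check of the re-expressed Rb. The arrays were alike in overall signal, with mean intensities of 336 to 346 and 15950 to 16740 detected probes. All 12 fibroblast markers were detected on every array but were not level between them. Col3a1, a fibrillar collagen, gave 9036, 5321, 5985 and 4638, past 1.6-fold below parental MEFs in Rb-deleted (-0.73, bead SE 0.07) and ΔCdk Rb-HA MEFs (-0.98, bead SE 0.08). Pdgfrb was past 1.6-fold lower in ΔCdk Rb-HA MEFs than in either of the other TAT-Cre groups. Of the adipocyte markers 9 of 10 adipocyte markers were not detected, and Adrb3 was detected on 1 array at 58.2.

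Macrophage and leukocyte markers separated parental MEFs from the rest. Of 17 markers 14 were analysed, and all 14 were lower in each TAT-Cre group than in parental MEFs, 10, 13 and 12 of them past 1.6-fold. Of all genes analysed 2.98%, 2.46% and 3.3% were past 1.6-fold lower in the same comparisons. Their summed intensity was 11903 in parental, 6021 in Rb-deleted, 5532 in WT Rb-HA and 6746 in ΔCdk Rb-HA MEFs. The markers Ptprc, Fcer1g and Itgam were not detected, whereas Emr1 and Csf1r were among the 14 analysed. Among the TAT-Cre groups none of the 14 differed past 1.6-fold, and the medians ran from -0.15 to 0.11. The part of these cells in the Lpl, Klf4 and Cebpb differences to parental MEFs was not tested, and fewer cells of a type cannot be told apart from less RNA per cell. In ΔCdk Rb-HA against Rb-deleted MEFs Lpl differed by -1.14, and the macrophage markers had a median of -0.09. The part of these cells in that Lpl difference was not tested either.

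Of 7 members of the C/EBP family 4 were analysed, Cebpb and Cebpd among them. None of the 4 passed 1.6-fold in any comparison, and the medians lay between -0.08 and 0.18. Cebpg, a partner of the other C/EBP proteins, was 0.20, 0.26 and 0.34 log2 units above parental MEFs (bead SE 0.05 each). Ddit3, a stress-induced C/EBP that blocks the others, was 0.13, 0.21 and 0.17 above (bead SE 0.07 each). Cebpe and Cebpz were not detected.

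Of 8 PPAR, RXR and LXR receptors 6 were analysed. Besides Pparg, its partners Rxra and Rxrb stayed within 0.07 and 0.30 of parental MEFs, Ppard within 0.19 and Nr1h2 within 0.09. Nr1h3, the LXRα receptor, was detected in parental MEFs only, at 63.0, and was at least 1.27-fold lower in Rb-deleted, 1.17-fold in WT Rb-HA and 1.23-fold in ΔCdk Rb-HA MEFs. Ppara and Rxrg were not detected.

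In the Klf family none of the 8 analysed of 10 members passed 1.6-fold, and the medians to parental MEFs were -0.16, -0.17 and -0.38. Klf6, which promotes fat cell formation by repressing Dlk1, was lower in all 3, at -0.45, -0.48 and -0.42 (bead SE 0.06). Klf2, which represses the Pparg promoter, gave 0.02, -0.23 and -0.42 (bead SE at most 0.07). Klf9 gave -0.25, -0.15 and -0.42 (bead SE 0.05).

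Of 18 other adipogenic transcription factors and cofactors 10 were analysed. In ΔCdk Rb-HA MEFs 9 of the 10 were below parental MEFs, with a median of -0.28 against -0.01 for all genes. Only 8 of the 10 were detected on every array. The others were detected in parental and Rb-deleted MEFs alone, so that passing the filter favoured a lower value in ΔCdk Rb-HA MEFs. Stat5a, a signal transducer of growth hormone and prolactin, gave 249.4, 214.6, 194.1 and 153.4. It was the 1 gene of the 10 past 1.6-fold against parental MEFs, at -0.73 (bead SE 0.10) in ΔCdk Rb-HA MEFs. Med1, a coactivator of PPARγ, was -0.49 (bead SE 0.08) in WT Rb-HA MEFs, and Ebf1 was -0.44 (bead SE 0.15) in ΔCdk Rb-HA MEFs. Ppargc1b, a coactivator of mitochondrial genes, passed the threshold in ΔCdk Rb-HA against Rb-deleted MEFs at -0.76, but it was below detection in ΔCdk Rb-HA MEFs, where the bound is at least 1.43-fold lower.

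Among genes that restrain fat cell formation, Dlk1, Tgfb1 and Id3 had the array order of Lpl, Rb-deleted above WT Rb-HA above parental above ΔCdk Rb-HA. They were 3 of the 22 analysed of 24 listed, or 13.6%, where 6.36% of all genes analysed had that order. Of these, Id3 was named to complete this count and gave 0.10, 0.09 and -0.14 against parental MEFs (bead SE at most 0.16). Each value was within its bead SE, so the order of Id3 was not resolved. The order counted was that seen in Lpl, and no link with Lpl was tested. Over the list the medians to parental MEFs were small, at -0.06, -0.10 and -0.15. Dlk1, a membrane protein of preadipocytes that blocks their differentiation, gave 13283 in parental, 19306 in Rb-deleted, 16491 in WT Rb-HA and 6218 in ΔCdk Rb-HA MEFs. It was highest in Rb-deleted and lowest in ΔCdk Rb-HA MEFs, with a log2 difference of -1.64 (bead SE 0.04) in ΔCdk Rb-HA against Rb-deleted MEFs and of -1.39 (bead SE 0.05) against WT Rb-HA MEFs.

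Gata3, which represses Pparg, was lower in all 3 TAT-Cre groups than in parental MEFs, at -0.83, -0.81 and -0.82 (bead SE 0.13 to 0.14). Foxc2 was also lower, at -0.55, -0.67 and -0.57 (bead SE at most 0.07). Smad3, a TGF-β signal transducer, gave -0.23, -0.41 and -0.56. Tgfb1, named after its values were seen because it was 1 of 2 genes of the list past 1.6-fold in ΔCdk Rb-HA against Rb-deleted MEFs, gave 602.3, 839.8, 745.0 and 503.0, a log2 difference of -0.72 (bead SE 0.09) in that comparison.

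Of 38 genes for adipocyte lipid handling, lipogenesis and adipokines 22 were analysed, Lpl among them. The list as a whole did not lean either way. Its medians were -0.07, 0.09 and 0.07 against parental MEFs, and 0.02 in ΔCdk Rb-HA against Rb-deleted MEFs, where 2 genes were past 1.6-fold higher and 1, Lpl, lower. Of all genes analysed 2.31% were higher and 1.95% lower in that comparison. The 2 higher genes of the list were Plin2 and Angptl4.

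Plin2, a coat protein of lipid droplets in many cell types, gave 271.1 in parental, 234.0 in Rb-deleted, 274.5 in WT Rb-HA and 465.3 in ΔCdk Rb-HA MEFs. It was highest where Lpl was lowest, and ΔCdk Rb-HA exceeded Rb-deleted MEFs by 1.12 log2 units (bead SE 0.18) and WT Rb-HA MEFs by 0.85 (bead SE 0.13). Angptl4, a secreted inhibitor of the lipoprotein lipase, gave 444.4, 276.8, 401.5 and 424.4. It was lowest in Rb-deleted MEFs, where Lpl was highest, with -0.69 (bead SE 0.09) against parental MEFs and 0.71 (bead SE 0.09) in ΔCdk Rb-HA against Rb-deleted MEFs. G0s2, an inhibitor of fat breakdown, was detected in Rb-deleted MEFs only, at 57.9, at least 1.05-fold above parental MEFs. Besides Fabp4, Cd36 and Adipoq, 13 genes of the list were not analysed, among them Plin1, Cidec, Lep, Retn and Cfd.

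Preadipocyte and stromal markers, 11 analysed of 12, had a median of -0.31 in ΔCdk Rb-HA against Rb-deleted MEFs. Of the 11, 7 were detected on every array. By normalized values 3 were past 1.6-fold lower and 1 higher, where 1.95% of all genes analysed were lower and 2.31% higher. The lower ones were Dlk1, Pdgfrb and Pi16. Pdgfrb, a growth factor receptor of stromal cells, gave 367.7, 434.8, 366.0 and 231.0, with -0.95 (bead SE 0.10) in that comparison. Pdgfra was -0.59 and -0.63 from parental MEFs in the re-expression groups, and -0.15 in Rb-deleted MEFs (bead SE at most 0.06). Pi16 was detected in Rb-deleted MEFs only and was at least 1.14-fold lower in ΔCdk Rb-HA MEFs, a bound short of 1.6-fold. The higher one, Cd24a, named for completing this count, was detected in ΔCdk Rb-HA MEFs only. It was at least 1.33-fold above Rb-deleted MEFs, also a bound short of 1.6-fold. Pi16 and Cd24a each passed the detection filter only through the array where they were high, which bears on this count and on the median.

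**Figure D4:**
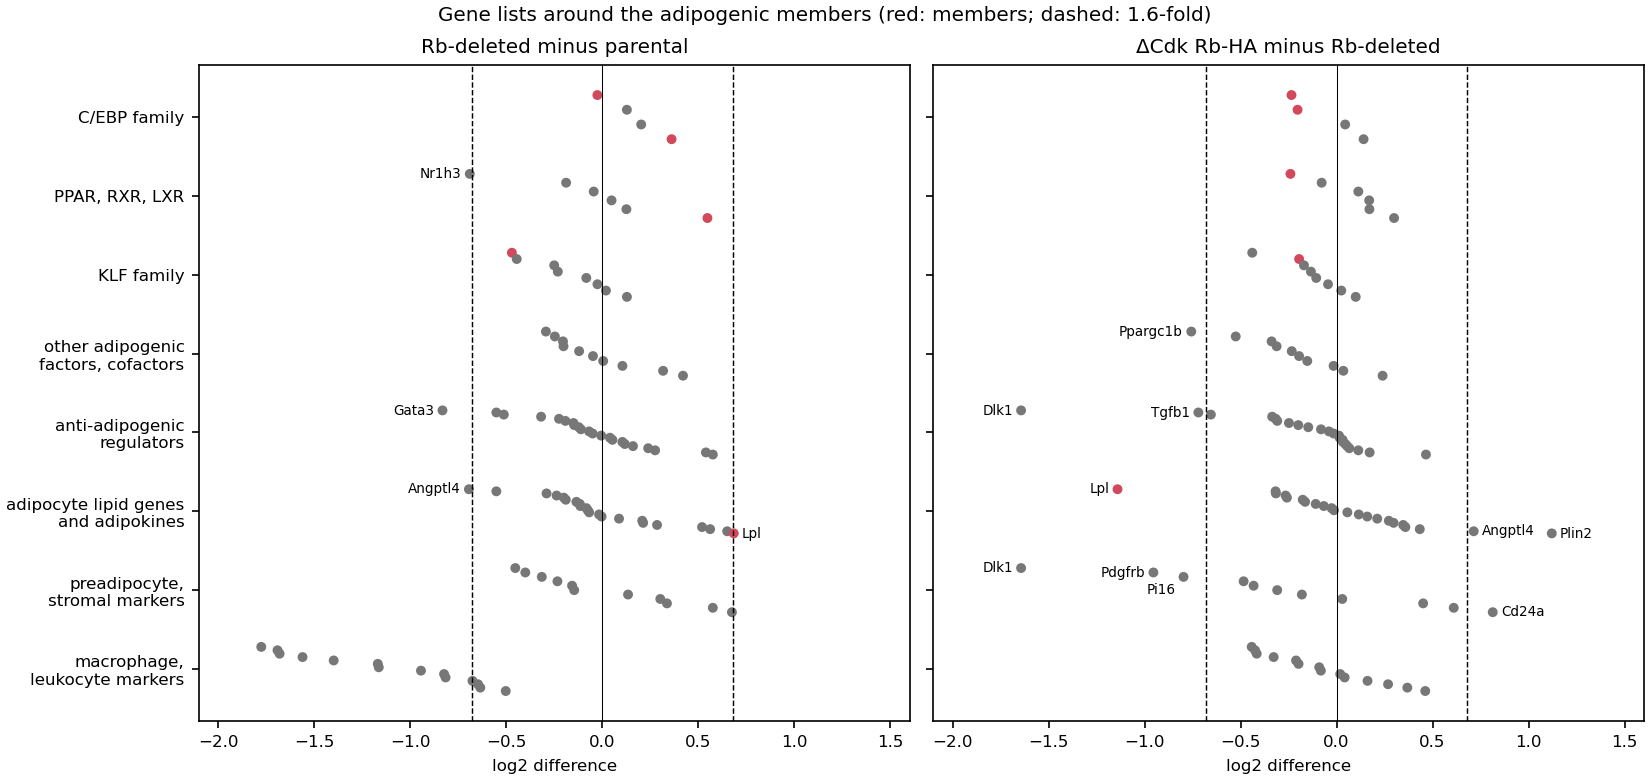
Log2 differences of each analysed gene of 8 lists, a point per gene ordered by value within its list, in Rb-deleted against parental MEFs and in ΔCdk Rb-HA against Rb-deleted MEFs, with the 5 detected adipogenic genes in red and genes past 1.6-fold named except among the macrophage markers. Lpl changes side between the panels, from 0.68 to -1.14, as does Dlk1 from 0.58 to -1.64, and all 14 macrophage markers lie below 0 in the left panel only.

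Genes known as C/EBP targets in acute-phase and inflammatory responses differed from parental MEFs by between -1.42 and 1.17 log2 units, where the detected C/EBP genes stayed within 0.36. Of 10 listed 6 were analysed. Il1rn, the interleukin-1 receptor antagonist, gave 659.0 in parental, 253.7 in Rb-deleted, 265.5 in WT Rb-HA and 365.5 in ΔCdk Rb-HA MEFs, with log2 differences to parental MEFs of -1.42, -1.34 and -0.81 (bead SE at most 0.07). Ptgs2, the inducible cyclooxygenase, gave 310.4, 151.3, 202.3 and 238.0. Il6 gave 167.8, 114.2, 134.6 and 164.4, and its log2 difference in ΔCdk Rb-HA against Rb-deleted MEFs was 0.67 (bead SE 0.11).

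Saa3, an acute-phase protein, went the other way, with 121.8, 169.1, 211.8 and 237.8 and 1.17 log2 units (bead SE 0.11) above parental MEFs in ΔCdk Rb-HA MEFs. In WT Rb-HA against Rb-deleted MEFs all 6 were above 0, with a median of 0.25, and in ΔCdk Rb-HA against Rb-deleted MEFs 5 of 6, with a median of 0.60 and Ptgs2 past 1.6-fold at 0.78 (bead SE 0.12). Il1rn, Ptgs2 and Il6 are also made by macrophages, whose markers were lower in every TAT-Cre group, and their part in the differences to parental MEFs was not tested.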

How the data were processed

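The authors deposited a single table of summarized probe intensities, on a linear scale and not normalized between arrays, with a detection p-value, a bead standard error and a bead number per probe and array. How their own values were normalized is not given in the sources used here. Groups came from the sample labels, and the doxorubicin step from the study's methods.

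Background was corrected with limma 3.58.1 in R 4.3.3 (normexp with parameters inferred from the deposited detection p-values, offset 16), followed by quantile normalization of the 4 arrays and log2. A gene was analysed if any array detected a probe of it (p-value below 0.01), by the brightest such probe. Bead standard errors were carried through the same scale, and they cover technical error of an array only. Where a probe was detected on 1 side of a comparison only, the fold is a bound set by the dimmest detected probe. The number of arrays limits the precision.

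The 9 genes and all lists were chosen with earlier results of these data known. Named from each list were up to 4 analysed genes with the largest difference to parental MEFs, with every analysed C/EBP and PPAR, RXR or LXR gene, Rb1 and the 3 genes nearest to Lpl. The adipocyte, preadipocyte and other lists overlap in places. Emr1 and Adgre1, names of the same gene, counted once. Of 40 symbols turned into dates 34 were restored through a RefSeq table of GRCm38.p6. The script was tested on simulated data.

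Alternatives were no background correction, offsets of 1 and 50, median scaling, cyclic loess, other rules for detection and for probes, and thresholds of 1.5-fold and 2-fold.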

Additional observations from a re-analysis of the deposited data

How the results depend on the processing

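Lpl remained lower by more than 1.6-fold in ΔCdk Rb-HA against Rb-deleted MEFs (-1.16 to -1.09 on the log2 scale) and against WT Rb-HA MEFs (-0.95 to -0.88) under each of 10 settings, the reported one included, at a threshold of 1.6-fold. Among these, the other detection rules and the averaging of probes repeat the reported Lpl value, since they keep its single detected probe. In Rb-deleted against parental MEFs, Lpl lay between 0.66 and 0.70, and the count of genes past the threshold went from 1 to 0 without background correction, with an offset of 50, with median scaling, with cyclic loess or at 2-fold, and to 2 with an offset of 1, where Pparg joined. In WT Rb-HA against parental MEFs the count went from 0 to 1, Klf4, with median scaling, cyclic loess or 1.5-fold. In ΔCdk Rb-HA against parental MEFs it went from 0 to 1, again Klf4, with these and with an offset of 1. At 2-fold Lpl was no longer past in ΔCdk Rb-HA against WT Rb-HA MEFs, a count of 0. Averaging the 3 Klf4 probes gave 0.09 in Rb-deleted against parental MEFs, the opposite sign to the -0.47 of the brightest probe, and moved Klf4 in 4 other comparisons. The other 265 of 270 single-gene values moved by less than about 2 bead SE, which for small or dim values can exceed 1.5 times, as for Cebpb in ΔCdk Rb-HA against Rb-deleted MEFs, from -0.23 to -0.14 with median scaling. Many of these values could not move. The other detection rules kept the same probe and value for each detected gene, and averaging over probes could change Klf4 alone. The other 58 of 72 counts were within 1.5 times. The medians of the adipocyte lipid list stayed between -0.11 and 0.13 in all settings and have no sure sign, since 4 of the 6 changed sign without a filter on dim probes. No paired analysis was possible because each group has 1 array. Pparg at 62.4 to 78.7 is close to background, and its difference in Rb-deleted against parental MEFs went from 0.32 with an offset of 50 to 0.82 with an offset of 1. For Cebpa, Fabp4, Cd36 and Adipoq the signal over background allows no comparison.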

Other observations

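The other fates open to mesenchymal cells gave mixed values. Of 10 osteoblast regulators and markers 5 were analysed, and Runx2, Ibsp and Dlx5 were not detected. Spp1, the matrix protein osteopontin, which macrophages also make, gave 7486 in parental, 3914 in Rb-deleted, 4826 in WT Rb-HA and 9875 in ΔCdk Rb-HA MEFs. Its log2 difference in ΔCdk Rb-HA against Rb-deleted MEFs was 1.35 (bead SE 0.07), opposite in sign to the -1.14 of Lpl. Bglap2, an osteocalcin gene with close copies, exceeded parental MEFs in Rb-deleted MEFs by at least 1.33-fold, and Sp7, an osteoblast transcription factor, at least 1.25-fold higher in ΔCdk Rb-HA than in parental MEFs. Sparc, a matrix protein, stayed within 0.15 of parental MEFs.

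Of 12 skeletal muscle regulators and markers 6 were analysed, and Myod1 and Myf5 were not detected. Acta1, skeletal muscle actin, gave 653.7, 483.1, 692.1 and 992.3 in the same order of arrays, and ΔCdk Rb-HA exceeded Rb-deleted MEFs by 1.13 log2 units (bead SE 0.08). Myh8, a perinatal myosin heavy chain, was instead highest in Rb-deleted MEFs at 75.7, with at least 1.67-fold less in ΔCdk Rb-HA MEFs. Mef2c was 0.34 (bead SE 0.10) above parental MEFs in Rb-deleted MEFs and within 0.04 in the other groups. Mylpf was detected on 1 array only.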
